A study of Mus musculus with 18 samples.

Results

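The histone cluster genes are the genes that the mouse annotation names Hist1h to Hist4h, and they encode the linker histone H1 and the core histones H2A, H2B, H3 and H4. Members were the symbols of that pattern with at least 10 counts summed over 18 bulk RNA-seq libraries of mouse esophageal organoids. Of 68 such symbols among the 24421 genes of each deposited table, 56 met the rule, with 59850 counts in all. They were 5 H1, 13 H2a, 16 H2b, 10 H3 and 12 H4 genes, with 46 members in the Hist1 cluster on chromosome 13, 6 in the Hist2 cluster on chromosome 3, 3 in the Hist3 cluster on chromosome 11 and 1, Hist4h4, on chromosome 6. Just inside the rule were Hist2h2aa2 with 21 counts and Hist1h1a with 23, and just outside it were Hist2h2ab with 7 and Hist1h1t, the testis H1, with 3. The other 10 symbols had no count, among them the testis H2B gene Hist1h2ba.

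Organoids are small epithelial structures that form in a gel from single cells. All libraries were labelled Trp53-/-, Myc OE (overexpression) and sgCdkn2a, a guide RNA against the Cdkn2a tumor suppressor. The groups were premalignant sgTgfbr2 (n = 4, numbered sgTgfbr2_1 and sgTgfbr2_2 with 2 libraries each) and premalignant sgScr (n = 3), tumor sgTgfbr2 (n = 2) and tumor sgScr (n = 3), and tumor sgTgfbr2 given 2 µM pinaverium bromide (PB, a calcium channel blocker, n = 3) and tumor sgTgfbr2 given DMSO vehicle (n = 3). sgTgfbr2 is a guide against the type II TGF-beta receptor and sgScr is its control. PB was added after 72 h of culture, and how long it was left on the organoids was not given. The medium listed for all libraries held 2 µM A83-01, which blocks the kinase of the type I TGF-beta receptor, so the sgScr organoids were grown with TGF-beta signalling inhibited too. The labels do not say whether sgTgfbr2_1 and sgTgfbr2_2 are different guides or different lines, or whether replicates are separate cultures or animals, and the p-values therefore cover the spread between libraries, which may be technical.

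Histone cluster genes are transcribed mostly in S phase, when new DNA is packed into nucleosomes. The core histones form the octamer around which DNA is wrapped, and H1 binds the DNA between nucleosomes. Most of their mRNAs have no poly(A) tail: they end a short way past a conserved 3′ stem-loop, which the stem-loop binding protein SLBP binds and which steers their processing, translation and decay. Some of the genes also give longer, polyadenylated transcripts, which are known mainly from cells that have left the cycle. The labels do not say whether the libraries were made from poly(A)-selected RNA, and a poly(A)-selected library would count mainly the longer transcripts. Near-identical coding sequences also mean that reads can fit several members.

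The 3′ stem-loop is shown because it is the feature that the family's mRNAs share. The annotated transcripts (GENCODE M21, GRCm38) were searched within 100 bases after the stop codon for the 16-base consensus, allowing 3 mismatches. Of 43 members with at least 16 annotated bases there, 36 matched, 20 of them exactly. Among 19713 other genes with 100 annotated bases after the stop codon, 22 (0.112%) matched and 1 matched exactly. The forms found are printed 5′ to 3′ as DNA, with the loop of the hairpin in capitals. H4 genes carried another stem than the other types, and loops ending in A were found in H2b and H3 genes.
20 members (3 H1, 7 H2a, 7 H2b, 3 H3), such as Hist1h1c at chr13:23739512-23739527 (+) and Hist3h2a at chr11:58955172-58955187 (+): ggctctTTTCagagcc
5 members (2 H2b, 3 H3), such as Hist1h2bk at chr13:22036300-22036315 (+): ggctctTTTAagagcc
6 members (all H4), such as Hist1h4h at chr13:23531458-23531473 (+): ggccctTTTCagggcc
2 members (both H4), such as Hist1h4i at chr13:22040966-22040981 (-): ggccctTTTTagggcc
The remaining forms belonged to 1 member each, Hist1h4a, Hist1h3g and Hist2h2ac. Hist1h2bc, the member with the most counts, has 742 annotated bases after its stop codon and no match in the window, and Hist2h2be has 2192 bases and no match. Only 1 spliced transcript per gene was searched, and that of Hist1h2bc has 2 exons. Bases spliced out of it were not searched, so the gene itself may still hold a stem-loop. The 18 members with at least 300 annotated bases after the stop codon held 80.8% of the family's counts. The median member among the 18 had 139.9 counts per kilobase of transcript, against 304 among the other 38. These medians describe single members, not summed counts: Hist1h2bc and Hist1h1c, both among the 18, had 18721 and 8409 counts per kilobase.

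Promoters are shown for 4 members that rose under PB, each the 250 bases before the RefSeq start (GRCm38.p6), printed 5′ to 3′ on the gene's strand. Capitals mark the CCAAT box (CCAAT, or ATTGG on the opposite strand), the TATA box (TATAAA or TTTATA), the octamer of histone promoters (ATTTGCAT or ATGCAAAT) and the H1 box (AAACACA or TGTGTTT). None of these motifs overlapped another in what is printed.
Hist3h2a, chr11:58954435-58954684 (+): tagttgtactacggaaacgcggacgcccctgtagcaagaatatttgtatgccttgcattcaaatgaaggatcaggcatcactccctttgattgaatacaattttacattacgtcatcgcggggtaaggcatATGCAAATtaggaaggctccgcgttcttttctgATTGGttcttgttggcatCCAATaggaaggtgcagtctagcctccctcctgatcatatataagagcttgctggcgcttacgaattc
Hist3h2ba, chr11:58948661-58948910 (+): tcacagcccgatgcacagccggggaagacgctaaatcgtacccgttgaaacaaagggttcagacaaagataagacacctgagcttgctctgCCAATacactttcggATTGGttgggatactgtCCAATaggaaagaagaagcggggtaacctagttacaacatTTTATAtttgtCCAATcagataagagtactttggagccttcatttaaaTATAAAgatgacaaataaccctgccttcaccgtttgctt
Hist1h1c, chr13:23738557-23738806 (+): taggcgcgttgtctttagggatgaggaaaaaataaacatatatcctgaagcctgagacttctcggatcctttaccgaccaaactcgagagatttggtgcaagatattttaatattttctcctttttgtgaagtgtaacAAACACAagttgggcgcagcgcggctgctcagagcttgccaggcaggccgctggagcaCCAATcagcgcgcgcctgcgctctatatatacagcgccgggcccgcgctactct
Hist1h4i, chr13:22041363-22041612 (-): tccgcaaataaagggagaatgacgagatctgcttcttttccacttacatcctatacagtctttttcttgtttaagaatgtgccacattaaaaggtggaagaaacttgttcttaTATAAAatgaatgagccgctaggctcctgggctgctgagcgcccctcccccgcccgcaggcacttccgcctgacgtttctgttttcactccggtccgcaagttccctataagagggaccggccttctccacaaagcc
RefSeq gave an upstream sequence for 50 of the 56 members. CCAAT was found in 42 of them (84%), against 34.5% of 27025 mouse promoters of that length. All 39 H1, H2a, H2b and H3 promoters held it, against 3 of 11 H4 promoters. The octamer was found in 11 members (22%, against 1.61% of all promoters), 6 of them H2a and 5 H2b. Some H2a and H2b windows overlap as the same DNA read from opposite strands, such as Hist1h2ae with Hist1h2bg and Hist1h2ah with Hist1h2bk. The same octamer is counted for both members of each of these pairs. Motif counts, those of CCAAT included, are therefore not independent between members. TATAAA was found in 25 members (50%, against 13.0%). The H1 box was found in 6 members (12%, against 6.22%), among them 4 of 5 H1 promoters. A match describes letters in this window, not a bound site.

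Each library held 14993749 to 21784140 counts, so that 3 counts stand for 0.138 to 0.200 CPM, counts scaled to library size, which covers counting error only. Tgfbr2 was lower with its guide, at 85.5 to 128 CPM in premalignant sgTgfbr2 against 189 to 219.6 CPM in premalignant sgScr, and at 61.2 to 61.8 CPM in tumor sgTgfbr2 against 123 to 138 CPM in tumor sgScr. The tumor libraries did not match the epithelial label in full. Of 6 skeletal muscle markers, 4 were detected in tumor sgTgfbr2 (summed 1.79 to 2.96 CPM of the library total) and 6 in tumor sgScr (16010 to 16571). Of 6 gastric gland markers, 6 were detected in tumor sgTgfbr2 (27870 to 30981 CPM) and 2 in tumor sgScr (0 to 0.211). Fibroblast markers summed to 2280 to 2340 CPM in tumor sgTgfbr2 and 2842 to 3032 in tumor sgScr, and to at most 4.51 CPM in the premalignant, PB and vehicle libraries. In bulk RNA, fewer cells of a type and less RNA per cell cannot be told apart.

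The family was dominated by few genes. Hist1h2bc (H2B) and Hist1h1c (H1) together held 58.1% of the counts, the 10 highest members 87.5%, and 28 members had fewer than 150 counts in all 18 libraries. Counts were found in every library for 24 members. Summed CPM of the library total, which can be set side by side over the 3 separately made tables but was not tested across them, stood at 81.2 to 95.2 in premalignant sgTgfbr2 and 154 to 173 in premalignant sgScr. The sum was 202 to 216 in tumor sgTgfbr2 and 189 to 202 in tumor sgScr, and 405.5 to 412 with PB and 135 to 143 with vehicle. Relative to transcript length, Hist1h2bc was the highest member in the premalignant, PB and vehicle groups (149 CPM per kilobase with PB, 61.4 with vehicle). In the tumor table Hist1h1c was the highest (62.4 CPM per kilobase in tumor sgTgfbr2, 47.8 in tumor sgScr). H1 transcripts made up 48.2% of the family's sum in tumor sgTgfbr2 and 38.8% in tumor sgScr, 21.2% and 24.5% in premalignant sgTgfbr2_1 and sgTgfbr2_2 and 12.04% in premalignant sgScr, and 13.4% with PB and 14.0% with vehicle.

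**Figure D1:**
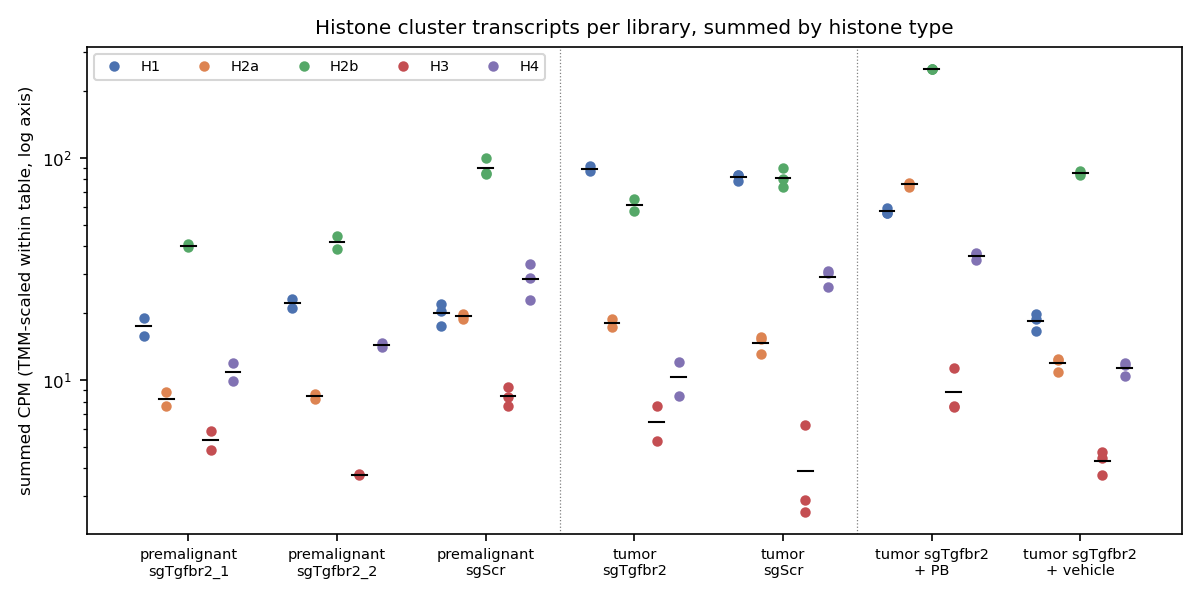
Summed CPM (TMM-scaled within each table, log axis) of H1, H2a, H2b, H3 and H4 genes in each of the 18 libraries, with the group mean as a black line; dotted lines separate the 3 tables. All 5 types lie above the vehicle libraries in the PB libraries, and 4 of 5 types (all but H1) lie below the sgScr libraries in the premalignant sgTgfbr2 libraries.

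Histone transcripts of all 5 types were higher in tumor sgTgfbr2 organoids given PB than in those given vehicle. The family summed to 429 ± 3.30 CPM with PB and 131 ± 4.22 CPM with vehicle (SD, n = 3 each; CPM here and below are scaled within a table by TMM, edgeR's library scaling), a 3.26-fold difference. Of 29 members with enough counts to test, 24 rose and 0 fell (82.8%, against 36.5% of all 12801 genes tested called higher, 36.8% called lower and 73.3% called in either direction). The 24 comprised 4 of 4 H1, 7 of 9 H2a, 9 of 9 H2b, 2 of 3 H3 and 2 of 4 H4 genes. The median log2 fold change was 1.31 over the members tested and -0.01 over all genes tested. A call here and below is an adjusted p under 0.05 by edgeR's quasi-likelihood test, two-sided, with Benjamini-Hochberg adjustment over all genes. The authors' deposited table called 18 members higher and 0 lower. Replicate libraries lay closer together in the PB and vehicle groups, at a chi-square per degree of freedom of 1.51 to 2.03 per pair. Pairs within the premalignant and tumor groups stood at 6.42 to 21.3. The small p-values with PB go with this small spread between libraries, which may be technical.

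The 2 coding Hist3 genes had the highest fold changes of the members with a mean of at least 1 CPM. Hist3h2a, an H2A gene at chr11:58954685-58956830 whose promoter is printed above, had 65.6, 64.3 and 65.4 CPM in PB libraries, against 5.61, 5.52 and 7.49 CPM in vehicle libraries. The 3 PB libraries lay close together and far above all vehicle libraries (log2 fold change 3.39 ± 0.08, SE; edgeR adjusted p = 2.45e-47). Hist3h2ba, an H2B gene upstream on the same strand at chr11:58948920-58949533, had 21.3, 21.8 and 19.9 CPM in PB libraries, against 2.31, 2.30 and 1.66 CPM in vehicle libraries. The groups did not overlap (3.32 ± 0.13, adjusted p = 8.94e-34). Between them lies the pseudogene Hist3h2bb-ps, counted within H2b, on the opposite strand at chr11:58954048-58954512. It had 35 counts over the PB libraries and 3 over the vehicle libraries, a ratio of 13.5 (95% counting interval 4.25 to 68.5, counting error only). The cluster summed to 86.9 ± 0.649 CPM with PB and 8.36 ± 0.844 CPM with vehicle, a 10.4-fold difference, against 4.42-fold for the Hist2 cluster and 2.70-fold for the Hist1 cluster, and the difference between clusters was not tested.

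Of the genes beside or overlapping the Hist3 cluster, Rnf187 rose, Trim11 fell and Trim17 did not pass the threshold. Trim17, a TRIM-family ubiquitin ligase gene, starts at the same position and on the same strand as Hist3h2a, so 31.5% of the 50-base words of Hist3h2a also occur in Trim17 and reads there may belong to either. Trim17 stood at 0.506 ± 0.0467 CPM with PB and 0.779 ± 0.140 CPM with vehicle (log2 fold change -0.61 ± 0.42, adjusted p = 0.182). On the log2 scale Rnf187, on the left of the cluster, rose by 0.32 ± 0.03 (edgeR adjusted p = 4.75e-13). Trim11, on the right, fell by 1.04 ± 0.07 (edgeR adjusted p = 8.92e-22). These neighbours were chosen after the values were seen.

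Other core histone genes with many counts rose as well. Hist1h2bc, at chr13:23684199-23692908, had 182, 179 and 181 CPM in PB libraries, against 69.2, 67.4 and 66.2 CPM in vehicle libraries (1.42 ± 0.03, adjusted p = 3.7e-46). It alone held 42.1% of the family's CPM with PB and 51.4% with vehicle, and without it the family's log2 ratio of sums was 1.96 in place of 1.71. Hist2h2be, an H2B gene of the Hist2 cluster at chr3:96221119-96223738, had 21.9, 21.6 and 22.4 CPM in PB libraries, against 4.45, 4.59 and 3.80 CPM in vehicle libraries (2.36 ± 0.11, adjusted p = 6.87e-30). None of the 50-base words of its annotated transcript occurs exactly in a transcript of another gene. Words with mismatches were not compared, and the treatment of multi-mapping reads was not stated. Whether reads were shared with a paralog was therefore not tested. Hist1h4i, the H4 gene with the most counts, at chr13:22040636-22041362, had 28.0, 28.6 and 26.4 CPM in PB libraries, against 6.997, 5.77 and 5.64 CPM in vehicle libraries (2.17 ± 0.10, adjusted p = 7.13e-31). Hist1h2bg, an H2B gene at chr13:23571396-23572013 that shares 49.7% of its 50-base words with other genes, most of all with Hist1h2bc, had 16.1, 17.4 and 16.8 CPM in PB libraries, against 6.25, 5.89 and 6.65 CPM in vehicle libraries (1.42 ± 0.11, adjusted p = 3.44e-19). For none of these 4 genes did the PB and vehicle libraries overlap.

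All 4 H1 genes tested rose by similar amounts. Hist1h1c, the linker histone gene with the most counts, at chr13:23738808-23740367, had 49.5, 48.0 and 50.7 CPM in PB libraries, against 16.6, 14.0 and 15.8 CPM in vehicle libraries (1.67 ± 0.07, adjusted p = 3.55e-33). Hist1h1e changed by 1.64 ± 0.29, Hist1h1d by 1.48 ± 0.30 and Hist1h1b by 1.37 ± 0.25, and none of the 3 was above 1.5 CPM in a vehicle library. A part of the Hist1h1e transcript (23.8% of its 50-base words) also occurs in Hist1h2be, an H2B gene whose annotation overlaps it. Hist1h1a, the remaining H1 gene, had 23 counts in all libraries and was not tested. H3 genes were low throughout: Hist1h3d, the H3 gene with the most counts, stood at 2.73 ± 0.753 CPM with PB and 0.835 ± 0.0307 CPM with vehicle (1.70 ± 0.28, adjusted p = 2.44e-07). Hist1h3i, at -0.19 ± 0.44, was the only tested member with a negative value, and Hist1h2ai, Hist1h2af, Hist1h4k and Hist1h4j also did not pass the threshold.

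**Figure D2:**
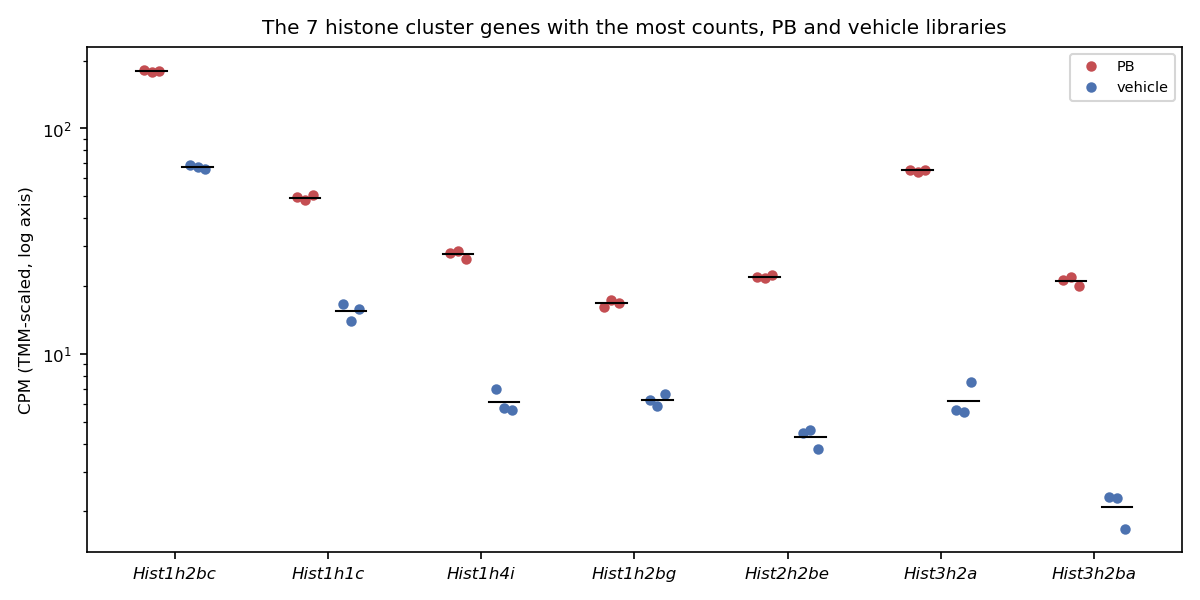
CPM (TMM-scaled, log axis) of the 7 members with the most counts in the 3 PB and 3 vehicle libraries, with the group mean as a black line. Each gene's PB libraries lie above its vehicle libraries, and the widest gaps are those of Hist3h2a (65.1 against 6.21 CPM on average) and Hist3h2ba (21.01 against 2.09).

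By type, sums rose 6.38-fold for H2a (75.9 ± 1.49 CPM with PB and 11.9 ± 0.854 with vehicle), 3.20-fold for H4, 3.13-fold for H1, 2.93-fold for H2b and 2.05-fold for H3 (8.82 ± 2.14 CPM with PB and 4.31 ± 0.526 with vehicle), with no overlap between the groups for any type. A sum over a type has no test here. Hist3h2a made up most of the H2a sum. Descriptive splits of the tested members were made without a test. Of 11 tested members with at least 300 annotated bases after the stop codon 10 rose (median 1.67), and of 17 with fewer 13 rose (median 0.93), the pseudogene Hist3h2bb-ps having no annotated stop codon. The log2 fold changes of these sets overlapped, at 0.55 to 3.39 for the longer and -0.19 to 3.32 for the shorter ends. Of 17 members with at most 50% of their 50-base words in another gene 16 rose (median 1.67), and of 12 with more 8 rose (median 0.84). Beside these splits, 36.5% of all genes tested were called higher, 36.8% lower and 73.3% in either direction. The members with longer annotated ends also had more counts (median 270 against 141.5 in all libraries), and the part that depth plays in these medians was not tested. Leaving out each library in turn left 20 to 24 members called higher and 0 lower.

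Genes of DNA replication went the other way under PB. Of 24 S phase genes 0 rose and 21 fell (median -0.60), and the list summed to 1297 to 1316 CPM of the library total with PB and 2080 to 2137 with vehicle. For this and the lists below, the shares over all genes tested were 36.5% higher, 36.8% lower and 73.3% in either direction. Squamous markers (Krt5, Krt14, Trp63, Sox2, Krt15) summed to 6408 to 6469 CPM with PB and 7425 to 7573 with vehicle, and their part in the histone difference was not tested. Fibroblast markers were at most 0.73 CPM in both groups. Fen1, the flap endonuclease of lagging-strand synthesis, fell by 1.86 ± 0.07 and Uhrf1, which keeps DNA methylation through replication, by 0.88 ± 0.03 on the log2 scale. Slbp, whose protein binds the stem-loop printed above, which is in the S phase list too, fell by 1.06 ± 0.05 (adjusted p = 1.2e-28), and Casp8ap2, a histone locus body factor, by 0.98 ± 0.06. Npat, the coactivator of histone gene transcription, differed little (0.14 ± 0.05, adjusted p = 0.00956). Of the 15 genes of histone mRNA transcription and 3′ end processing 6 rose and 7 fell (median -0.02), and of 16 histone chaperone and assembly genes 6 rose and 10 fell (median -0.21), with Nasp, an H3-H4 and H1 chaperone, at -0.81 ± 0.04 and Npm1, nucleophosmin, at 0.37 ± 0.02. Of 11 replication-independent variant genes, which are expressed outside S phase and mostly polyadenylated, 7 rose and 3 fell (median 0.18). The variants with the smallest p were H1f0, the linker histone of non-dividing cells (1.12 ± 0.02), and H2afj, an H2A variant (1.05 ± 0.04). These lists, like the members, were chosen with earlier results of the data known.

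**Figure D3:**
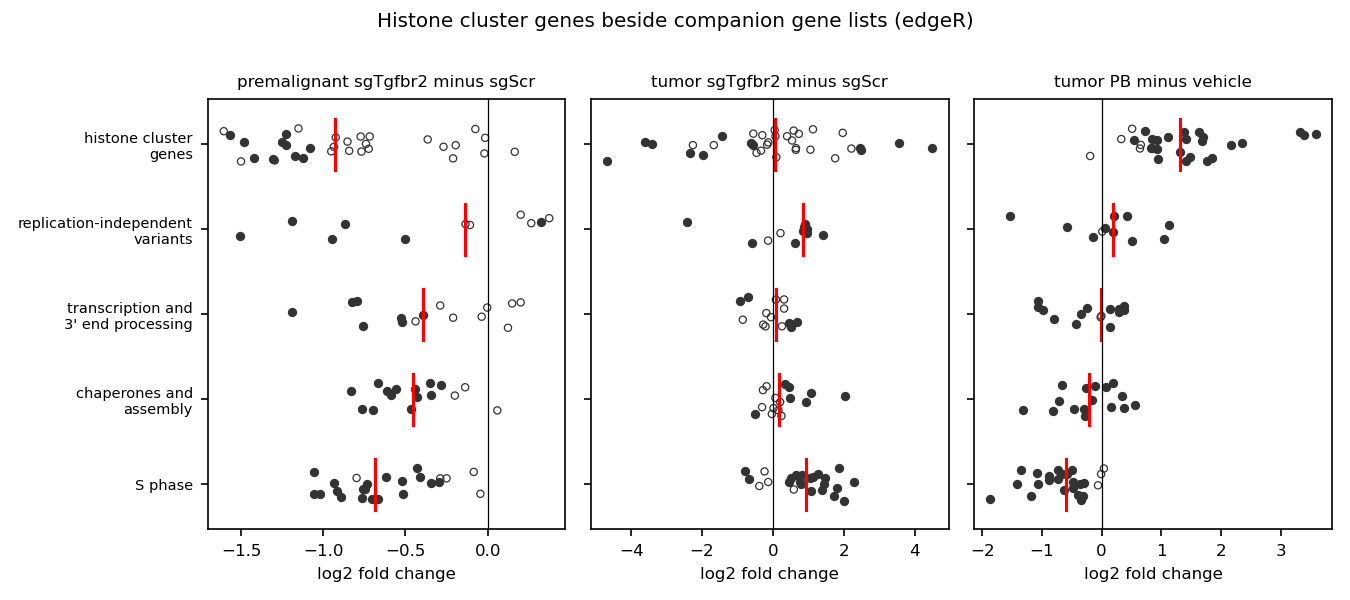
Log2 fold change of each tested gene of the histone cluster family and of 4 companion lists in the 3 comparisons; filled points have an adjusted p under 0.05, open points do not, red lines are medians and the vertical scatter within a row has no meaning. Under PB the histone cluster genes lie to the right (median 1.31) and the S phase genes to the left (median -0.60), whereas in the premalignant comparison both lie to the left (medians -0.93 and -0.69).

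In premalignant organoids, where the comparison asks what the Tgfbr2 guide changes before tumors form, 10 core histone genes were lower in sgTgfbr2, and neither the other 18 core genes tested nor the 4 H1 genes passed the threshold. The family summed to 86.4 ± 6.12 CPM in sgTgfbr2 (n = 4) and 165.9 ± 15.0 CPM in sgScr (n = 3), a log2 ratio of -0.94, and the lowest sgScr library (154 CPM) lay above the highest sgTgfbr2 library (94.4 CPM). Of 32 members tested 0 rose and 10 fell (31.2%, against 23.5% of 13098 genes called lower and 46.2% called in either direction). The 10 were 3 of 8 H2a, 3 of 7 H2b, 2 of 8 H3 and 2 of 5 H4 genes, and 0 of 4 H1 genes. The median log2 fold change was -0.93 over the members tested and -0.00 over all genes tested, and 1 of the 32 had a positive value. The authors' deposited table called 0 members higher and 10 lower. Without sgScr replicate 2, 4 members fell. With 1 sgTgfbr2 number in place of both, 18 fell for sgTgfbr2_2 and 7 for sgTgfbr2_1. The shares over all genes tested are not given for these alternative fits.

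Hist1h2bc carried much of the difference in summed CPM. It had 26.3 and 28.0 CPM in sgTgfbr2_1 and 25.7 and 31.7 CPM in sgTgfbr2_2, against 65.5, 77.4 and 64.2 CPM in sgScr (-1.31 ± 0.11, adjusted p = 7.6e-05). All 4 sgTgfbr2 libraries lay below the sgScr libraries. Without this gene the log2 ratio of sums was -0.73, and without both Hist1h2bc and Hist1h1c it was -0.96. Hist1h4i had 9.05 and 6.35 CPM in sgTgfbr2_1 and 11.3 and 10.8 CPM in sgTgfbr2_2, against 23.1, 26.8 and 17.3 CPM in sgScr (-1.25 ± 0.21, adjusted p = 0.00167), with no overlap. Hist1h2bg had 1.76 and 2.62 CPM in sgTgfbr2_1 and 1.83 and 2.06 CPM in sgTgfbr2_2, against 5.95, 4.41 and 6.28 CPM in sgScr (-1.42 ± 0.23, adjusted p = 0.00142). These groups also lay apart.

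Hist3h2a fell with a wider spread. It had 2.02 and 2.62 CPM in sgTgfbr2_1 and 4.52 and 6.18 CPM in sgTgfbr2_2, against 9.25, 9.59 and 8.07 CPM in sgScr (-1.23 ± 0.33, adjusted p = 0.0147), and the call was lost without sgScr replicate 1 (adjusted p = 0.0508) or replicate 2 (0.0587). The low H2a gene Hist1h2ae, at 0.619 ± 0.201 CPM in sgTgfbr2 and 1.74 ± 0.593 CPM in sgScr (-1.48 ± 0.38, adjusted p = 0.0109), and the H3 gene Hist1h3g, at 0.333 ± 0.0745 CPM in sgTgfbr2 and 0.988 ± 0.148 CPM in sgScr (-1.57 ± 0.37, adjusted p = 0.00777), stood lowest by fold among the 10. Hist1h2be, Hist1h2ag, Hist1h3h and Hist1h4h made up the rest of the 10. The Hist1h2ag call was lost without any 1 of the sgScr libraries, the Hist1h2ae call without sgScr replicate 2, and the Hist1h4h call in most of the alternatives run. Hist2h2be (-0.27 ± 0.18, adjusted p = 0.249) and Hist3h2ba (-0.19 ± 0.29, adjusted p = 0.611) did not pass the threshold.

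Hist1h1c had 13.7 and 17.1 CPM in sgTgfbr2_1 and 19.8 and 21.6 CPM in sgTgfbr2_2, against 16.2, 20.1 and 18.7 CPM in sgScr. The groups overlapped and the estimate was near 0 (-0.02 ± 0.16, adjusted p = 0.931). The other H1 genes tested lay between -0.07 and 0.17 at under 0.6 CPM on average, with SEs of 0.35 to 0.47. By type, H1 summed to 19.8 ± 3.21 CPM in sgTgfbr2 and 19.97 ± 2.29 in sgScr. H2b summed to 41.0 ± 2.47 CPM in sgTgfbr2 and 89.8 ± 8.33 in sgScr, and H2a to 8.35 ± 0.553 in sgTgfbr2 and 19.4 ± 0.489 in sgScr. H4 summed to 12.6 ± 2.19 CPM in sgTgfbr2 and 28.4 ± 5.17 in sgScr, and H3 to 4.56 ± 1.03 in sgTgfbr2 and 8.45 ± 0.827 in sgScr. The sums of these 4 core types did not overlap between the groups.

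Here the S phase genes fell too: 0 of 24 rose and 19 fell (median -0.69), among them the replicative helicase gene Mcm5 (-1.02 ± 0.08) and the G1/S cyclin gene Ccne1 (-0.92 ± 0.09). The list summed to 1845 to 2317 CPM of the library total in sgTgfbr2 and 2727 to 3145 in sgScr. Among all genes tested, 22.7% were called higher, 23.5% lower and 46.2% in either direction, beside which each list here is to be read. Of the chaperone and assembly genes 0 rose and 13 of 16 fell, with the CAF-1 subunit gene Chaf1a at -0.70 ± 0.09 and the FACT subunit gene Ssrp1 at -0.59 ± 0.09. Of the transcription and processing genes 0 rose and 7 of 15 fell, with Cstf2 at -0.76 ± 0.11 and Lsm10, a subunit of the U7 particle that cuts histone pre-mRNA, at -0.80 ± 0.13. Slbp (-0.29 ± 0.17, adjusted p = 0.198) and Npat (0.15 ± 0.12, adjusted p = 0.314) did not pass the threshold. Of the variants 1 rose and 5 of 11 fell, with H2afj at -1.19 ± 0.17 and H2afy2, a macroH2A gene, at -1.51 ± 0.25. The 5 squamous markers moved with the groups, summing to 5320 to 5464 CPM in sgTgfbr2_1, 7920 to 8101 in sgTgfbr2_2 and 9437 to 9890 in sgScr. Of 6 immune markers 3 (Ptprc, Cd74, Cd68) were detected, summing to 35.1 to 60.7 CPM in sgTgfbr2 and 14.9 to 27.7 in sgScr, while Lyz2, Tyrobp and Cd3e were at 0 in both. Their part in the histone difference was not tested.

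The 2 sgTgfbr2 numbers differed in few histone genes. The family summed to 90.5 ± 5.50 CPM in sgTgfbr2_2 and 82.2 ± 3.56 CPM in sgTgfbr2_1 (SD, n = 2 each). Of 33 members tested 1 was higher and 2 were lower in sgTgfbr2_2 (9.09%, against 26.3% of 13438 genes called in either direction, 13.2% higher and 13.1% lower). The higher one was Hist3h2a, whose values are given above (1.19 ± 0.25, adjusted p = 0.00306). The lower ones were the low H2a gene Hist1h2ad, at 0.122 ± 0.0810 CPM in sgTgfbr2_2 and 0.613 ± 0.0389 CPM in sgTgfbr2_1 (adjusted p = 0.0332), and the H2b gene Hist1h2bj, at 0.129 ± 0.182 CPM in sgTgfbr2_2 and 0.720 ± 0.112 CPM in sgTgfbr2_1 (adjusted p = 0.0399). Leaving out a library gave 0 to 4 higher and 0 to 3 lower calls: 0 higher without sgTgfbr2_1 replicate 1, 2 and 4 higher without sgScr replicates 2 and 3, 0 lower without either sgTgfbr2_1 library or sgTgfbr2_2 replicate 1, and 1 lower without sgTgfbr2_2 replicate 2. Hist1h1c stood at 20.7 ± 1.31 CPM in sgTgfbr2_2 and 15.4 ± 2.40 CPM in sgTgfbr2_1 (0.42 ± 0.15, adjusted p = 0.0521).

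In the tumor table members moved in both directions. The family summed to 186 ± 13.9 CPM in sgTgfbr2 (n = 2) and 211 ± 5.43 CPM in sgScr (n = 3), a log2 ratio of -0.18 that is 0.10 when CPM are taken of the library total, a scaling that shifts every log2 ratio of this table by 0.29 and those of PB by -0.14. Of 34 members tested 4 rose and 8 fell (35.3%, against 60.3% of 15091 genes called in either direction, 29.8% higher and 30.5% lower). The risers were 3 of 8 H2a and 1 of 5 H3 genes, and those that fell were 1 of 8 H2a, 5 of 11 H2b and 2 of 7 H4 genes. The authors' deposited table called 3 members higher and 6 lower. Without sgTgfbr2 replicate 1, 1 member rose, and 3, 4 and 4 fell without sgScr replicate 1, sgScr replicate 3 and sgTgfbr2 replicate 2. The marker differences given above, with skeletal muscle RNA in the sgScr libraries and gastric gland RNA in the sgTgfbr2 libraries, cannot be told apart from the guide in this comparison.

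Hist1h2ag, an H2A gene at chr13:22042460-22042944 with 78.9% of its 50-base words in other genes, had 4.67 and 4.28 CPM in tumor sgTgfbr2, against 0, 0.154 and 0.445 CPM in tumor sgScr (4.50 ± 0.68, adjusted p = 6.58e-06). Hist1h3c, an H3 gene, had 2.90 and 1.263 CPM in tumor sgTgfbr2, against 0.340, 0.256 and 0.509 CPM in tumor sgScr (2.50 ± 0.70, adjusted p = 0.00396), a call lost without sgTgfbr2 replicate 1 (adjusted p = 0.153). Both genes were apart between the groups. The low H2a genes Hist1h2ac (0.955 ± 0.389 CPM in sgTgfbr2 and 0.0719 ± 0.0625 in sgScr) and Hist1h2ae (0.978 ± 0.147 CPM in sgTgfbr2 and 0.176 ± 0.132 in sgScr) also rose.

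Among the 8 lower members were H4 and H2B genes. Hist1h4h, an H4 gene at chr13:23531050-23531519, had 2.12 and 1.02 CPM in tumor sgTgfbr2, against 15.4, 15.98 and 18.7 CPM in tumor sgScr (-3.41 ± 0.31, adjusted p = 2.79e-09). It stood under 1.5 CPM in every premalignant, PB and vehicle library, so the high values belonged to the tumor sgScr libraries. Hist1h2bk, an H2B gene at chr13:22035870-22036345, had 4.08 and 2.23 CPM in tumor sgTgfbr2, against 14.0, 11.6 and 11.5 CPM in tumor sgScr (-1.97 ± 0.29, adjusted p = 4.99e-06). Hist1h2be had 1.82 and 1.85 CPM in tumor sgTgfbr2, against 5.61, 4.56 and 4.64 CPM in tumor sgScr (-1.43 ± 0.38, adjusted p = 0.00264). For Hist1h4h, Hist1h2bk and Hist1h2be the sgTgfbr2 libraries lay below the sgScr libraries.

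Hist3h2ba had 1 count in both tumor sgTgfbr2 libraries together and 43 counts in the tumor sgScr libraries, a ratio of 0.0301 (95% counting interval 7.44e-04 to 0.177), and the H2b gene Hist1h2bn had 2 counts in tumor sgTgfbr2 and 35 in tumor sgScr, a ratio of 0.0739 (0.00861 to 0.288). Both intervals cover counting error only and leave out the spread between libraries. The tumor sgScr libraries held 17, 22 and 4 counts of Hist3h2ba. Hist1h2bl, another H2b gene, stood at 0.245 ± 0.210 CPM in sgTgfbr2 and 1.28 ± 0.687 in sgScr (adjusted p = 0.0268). Hist3h2a, at 7.13 and 7.29 CPM in sgTgfbr2 and 10.9, 11.5 and 9.41 CPM in sgScr, was close to the threshold (-0.56 ± 0.24, adjusted p = 0.0492) and lost its call whenever a library was left out. Hist1h4i (-0.62 ± 0.25, adjusted p = 0.0397) lost its call without any 1 sgScr library or sgTgfbr2 replicate 2. Hist1h1c had 88.1 and 84.7 CPM in tumor sgTgfbr2, against 77.7, 82.7 and 82.0 CPM in tumor sgScr, and Hist1h2bc had 48.4 and 39.2 CPM in tumor sgTgfbr2, against 52.4, 53.2 and 41.5 CPM in tumor sgScr. Neither passed the threshold (0.10 ± 0.13, adjusted p = 0.541, and -0.16 ± 0.16, adjusted p = 0.389), and the Hist1h2bc libraries overlapped. The H1 genes Hist1h1e (1.06 ± 0.73, adjusted p = 0.217) and Hist1h1d (1.75 ± 0.82, adjusted p = 0.0688) did not pass it either, and Hist1h1a and Hist1h1b had too few counts in this table to test.

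By type, H4 summed to 10.3 ± 2.51 CPM in tumor sgTgfbr2 and 29.2 ± 2.50 in tumor sgScr, and H2b to 61.4 ± 5.28 CPM in tumor sgTgfbr2 and 81.3 ± 7.86 in tumor sgScr. H2a summed to 18.1 ± 1.09 CPM in tumor sgTgfbr2 and 14.7 ± 1.39 in tumor sgScr, and H1 to 89.5 ± 3.31 in tumor sgTgfbr2 and 81.8 ± 3.13 in tumor sgScr. H3 summed to 6.48 ± 1.68 CPM in tumor sgTgfbr2 and 3.91 ± 2.07 in tumor sgScr, and these H3 sums overlapped. The sums depend on the scaling. With CPM of the library total, H2b stood at 69.0 ± 3.83 in tumor sgTgfbr2 and 75.1 ± 7.47 in tumor sgScr, and these overlapped. On that scale H3 did not overlap, at 7.28 ± 1.67 and 3.63 ± 1.96, and the log2 ratio of H1 was 0.42 in place of 0.13. S phase genes were higher in tumor sgTgfbr2, with 18 of 24 up and 2 down (median 0.93), among them Cdt1, a replication licensing factor (2.29 ± 0.22), and the helicase gene Mcm4 (1.79 ± 0.15). The list summed to 929 to 948 CPM of the library total in tumor sgTgfbr2 and 395 to 423 in tumor sgScr. Squamous markers summed to 10022 to 10680 CPM in tumor sgTgfbr2 and 2997 to 3438 in tumor sgScr. Immune markers summed to 717 to 748 CPM in tumor sgTgfbr2 and 879 to 900 in tumor sgScr, and endothelial markers to 83.3 to 93.6 and 111 to 129. Their part in the S phase and histone differences was not tested. Slbp rose by 0.44 ± 0.16 (adjusted p = 0.0185), and the cap-binding genes Ncbp1 (-0.94 ± 0.14) and Ncbp2 (-0.71 ± 0.16) fell, among 4 processing genes that rose and 2 that fell of 15. Of the chaperone genes 6 of 16 rose and 1 fell, with the CAF-1 subunit gene Chaf1b at 2.03 ± 0.19 and the H3.3 chaperone gene Hira at 1.06 ± 0.15. Of the variants 7 of 11 rose and 2 fell, with the centromeric H3 gene Cenpa at 1.40 ± 0.15 and the H3.3 gene H3f3b at 0.95 ± 0.12. Beside these lists, 29.8% of all genes tested were called higher, 30.5% lower and 60.3% in either direction.

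**Figure D4:**
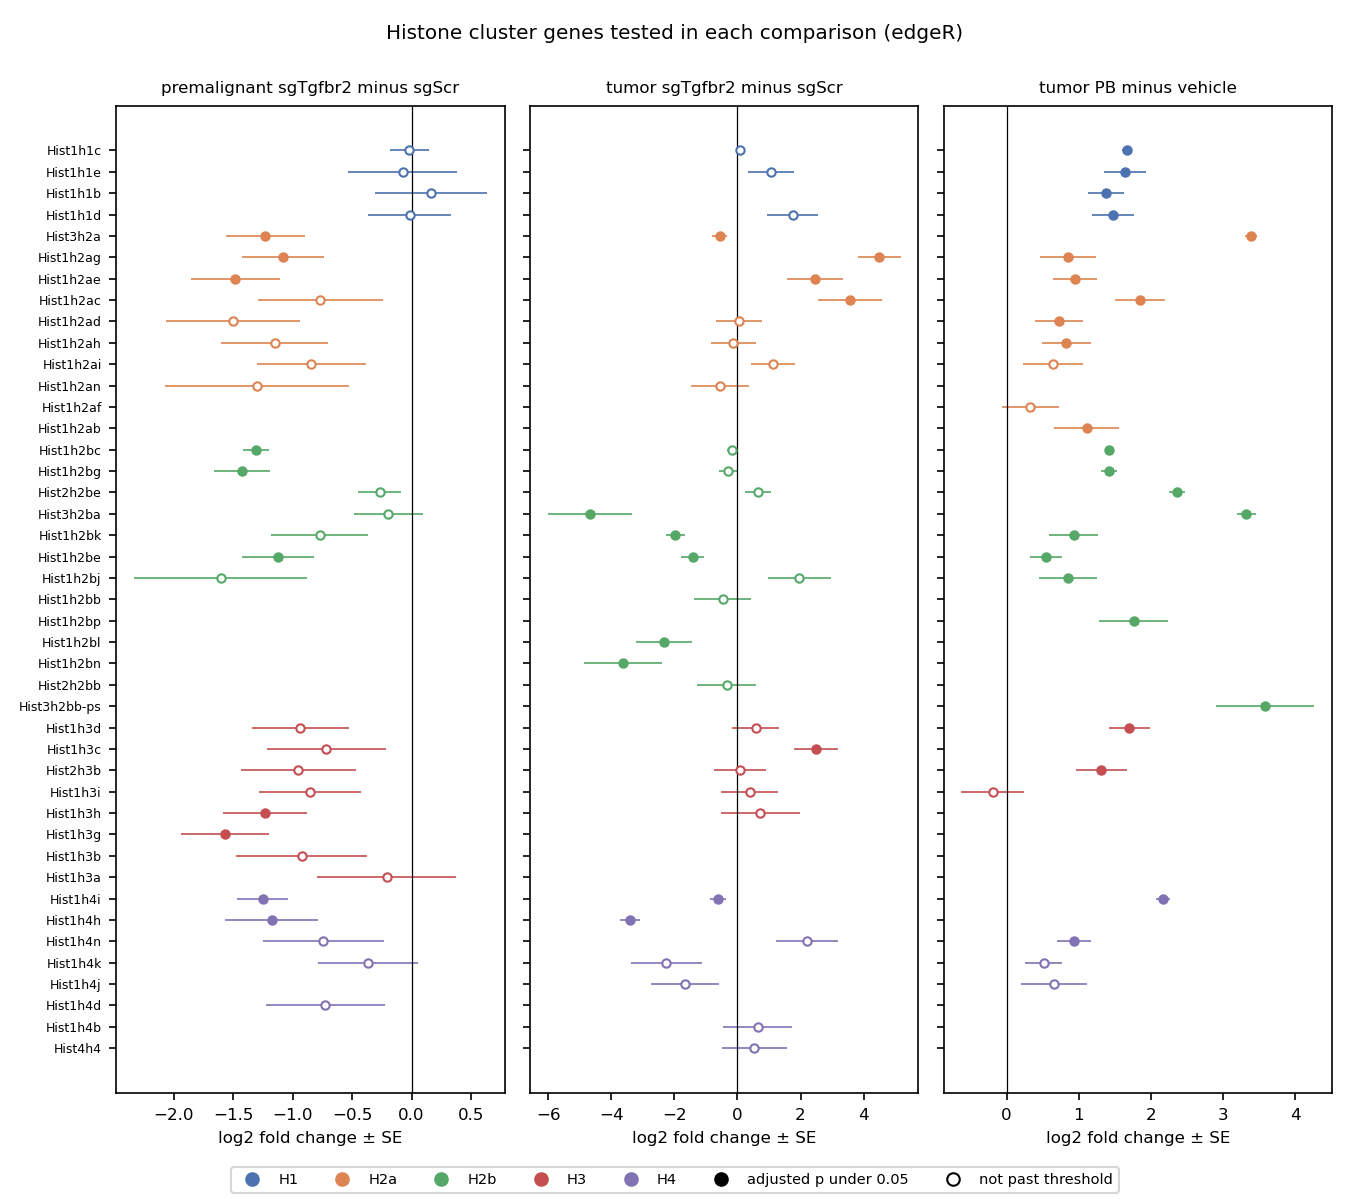
Log2 fold change ± SE by edgeR of each member tested in the premalignant, tumor and PB comparisons, coloured by histone type and ordered by type and count; filled points have an adjusted p under 0.05, open points do not. Values lie mostly below 0 in the premalignant panel (10 fell of 32), on both sides in the tumor panel (4 rose and 8 fell of 34) and above 0 in the PB panel (24 rose of 29).

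The sgTgfbr2 effect was compared between stages as a difference of differences over the 12 premalignant and tumor libraries. Of 42 members tested 10 had a higher and 3 a lower effect in tumor than in premalignant organoids (31.0%, against 49.5% of 15671 genes called in either direction, 25% higher and 24.5% lower). Hist1h2bc differed by 1.13 ± 0.20 (adjusted p = 2.05e-04), Hist1h2bg by 1.11 ± 0.41 (adjusted p = 0.0335), Hist1h3c by 3.22 ± 0.83 (adjusted p = 0.00471) and Hist1h2ag by 5.58 ± 0.80 (adjusted p = 3.80e-05), while Hist1h4h differed by -2.24 ± 0.52 (adjusted p = 0.00221). The differences of Hist1h1c (0.11 ± 0.22, adjusted p = 0.728), Hist3h2a (0.66 ± 0.45, adjusted p = 0.243) and Hist1h4i (0.62 ± 0.33, adjusted p = 0.133) did not pass the threshold. The count of higher effects was 6 without premalignant sgScr replicate 1 or sgTgfbr2_2 replicate 1 and 5 without premalignant sgScr replicate 3 or tumor sgScr replicate 2, and the count of lower effects was 5 without tumor sgTgfbr2 replicate 1. The tumor marker differences enter this contrast too, and their part was not tested.

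Not all members could be counted by their own reads. Of the 56, 24 had more than 50% of their 50-base words in another gene, with a median of 46.4% over all members. Among the 10 symbols without a count the median was 89.6%, and Hist2h3c1 had all of its words elsewhere, so a count of 0 there does not show that the gene was silent. Hist1h2aa, with 2.35%, and the testis gene Hist1h2ba, with 38.2%, were also at 0. Low counts left 11 members, among them Hist2h4, Hist1h4f and Hist2h2aa2, out of every test.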

How the data were processed

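Bulk RNA-seq was deposited as 3 tables, 1 for each comparison (premalignant sgTgfbr2 and sgScr, tumor sgTgfbr2 and sgScr, PB and vehicle). Per the file headers, each table holds the authors' whole-number counts per gene, a normalized signal per library, log2 fold changes with a Wald score, and p-values with adjusted p-values. Per the submitters' processing notes, the mm10 build was used with STAR 2.6.0a and DESeq2 1.26.0. The counting program, its use of strand, its treatment of multi-mapping reads and the annotation were stated in none of the labels or headers. Reads of near-identical histone genes may be lost or split. The 18 normalized columns were not used, and the authors' fold changes and p-values were used only for the counts of calls credited to them.

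Counts were tested in R 4.3.3 with edgeR 4.0.16 (filterByExpr with a minimum count of 10, TMM scaling, quasi-likelihood F test, Benjamini-Hochberg adjustment over all genes tested, threshold 0.05), in 1 fit for each table and 1 over the 12 premalignant and tumor libraries for the stage difference. The tests were checked on simulated data. SEs are the log2 fold change divided by the square root of F. Sums over members are descriptions without a test. Transcripts, positions and stem-loops are from GENCODE M21 (GRCm38), the consensus stem-loop being the commonest hairpin with a 6-base stem and a 4-base loop among the members' windows, and promoters from RefSeq (GRCm38.p6).

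Genes named are, for each type, the 2 members with the most counts, all H1 genes, per comparison up to 4 called members with the highest and 4 with the lowest fold change at a mean of at least 1 CPM, the testis genes, and per companion list up to 2 called genes with the smallest p, with Slbp and Npat. Others were named after their values were seen. The members and lists were chosen with earlier results of these data known. Alternatives were DESeq2 1.42.0, RLE scaling, no low-count filter, the replicate number as a block, each sgTgfbr2 number alone and each library left out.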

Additional observations from a re-analysis of the deposited data

Results flagged for a closer look

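By edgeR's test of the difference, the sgTgfbr2 effect (log2, sgTgfbr2 minus sgScr) differed between tumor and premalignant organoids for 13 of 42 members tested. This share of 31% lay below the 49.5% called among all 15671 genes tested. The difference, tumor minus premalignant, was 1.13 for Hist1h2bc, 1.11 for Hist1h2bg, 0.91 for Hist2h2be, 5.58 for Hist1h2ag, 3.94 for Hist1h2ae, 4.34 for Hist1h2ac, 1.96 for Hist1h2ai, 3.22 for Hist1h3c, 2.94 for Hist1h4n and 3.57 for Hist1h2bj. It was -2.24 for Hist1h4h, -4.55 for Hist3h2ba and -4.46 for Hist1h2bn, and the values of Hist3h2ba and Hist1h2bn rest on 1 and 2 counts in tumor sgTgfbr2. The Hist1h2bc difference set a premalignant fall (-1.31 ± 0.11) beside a tumor value that did not pass the threshold (-0.16 ± 0.16).

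Among the 4 premalignant sgTgfbr2 libraries, the lowest value lay apart from the rest for 2 of 18 named members and none of 6 sums examined, and chance at 1 in 20 would give 1.2 of these 24. Both lowest values were in sgTgfbr2_2 replicate 2, and the 4 libraries come from 2 sgTgfbr2 numbers. Hist1h2ag was 0.515 CPM there and 1.38 to 1.46 CPM in the other 3, a gap of 0.924 of the whole range. Hist2h2be was 3.54 CPM there and 3.94 to 3.99 CPM in the other 3, a gap of 0.876 of the range. Both gaps exceeded Dixon's critical value for 4 samples. They rest on few counts: 8 there and 26, 25 and 32 elsewhere for Hist1h2ag, and 55 there and 75, 68 and 88 elsewhere for Hist2h2be. The part of counting error in the gaps was not tested.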

How the results depend on the processing

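Of the counts of calls and log2 ratios of sums, 122 values under alternatives stayed within 1.5 times the count or 1 SD of the main value, 29 moved and 1 changed sign. The sign changed for the tumor sum, which was 0.10 with CPM of the library total and -0.18 with TMM, while the PB sum was 1.57 on that scale. Without Hist1h2bc the sums were -0.73 in the premalignant and 1.96 in the PB comparison. With Hist1h1c left out as well, they were -0.96 and 2.04. With the replicate block, 4 members fell in the premalignant comparison, 2 rose and 4 fell in the tumor comparison, 4 were higher in sgTgfbr2_2 than in sgTgfbr2_1, and 23 rose with PB. After group means were removed, same-numbered PB and vehicle libraries correlated by -0.00306 to 0.00943, which does not show pairing. Same-numbered premalignant and tumor libraries correlated by -0.159 to 0.246. A group of 2 libraries gives 2 opposite deviations, so those values cannot decide whether the numbers pair the libraries. With sgTgfbr2_2 alone 18 members fell, with sgTgfbr2_1 alone 7, and shares over all genes tested are not given for the alternatives here. Between the numbers, 4 members were higher without a low-count filter and 1 was lower by DESeq2. Leaving out 1 library at a time gave 4 to 12 premalignant members lower, 1 to 5 tumor members higher and 3 to 7 lower, 0 to 4 higher and 0 to 3 lower between the numbers, and 5 to 10 higher and 2 to 5 lower between stages. The tumor sum ranged from -0.26 to -0.11. Where no reason is given, the cause was not tested. For single genes 666 values kept their call, 49 lost it, 16 gained one and 0 changed sign. SEs reached 2.48 (Hist1h4d, between stages) among low members, so small changes were not detectable there at this depth.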
